A study of Mus musculus with 11 samples.

Results

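The NK-cell lectin-like receptors are C-type lectin-like membrane proteins that were described on natural killer (NK) cells and are also carried by CD8 T cells that have met antigen. Counts were taken for 10 genes of this group, picked by name: Klrg1, Klrc1, Klrc2, Klrd1, Klrk1, Klrb1c, Klre1, Klra3, Klra7 and Klra9. They are 10 of the 52636 genes in the deposited count table, and each name matched 1 row. The study sequenced RNA of CD8 T cells sorted from spleens of C57BL/6 mice. The memory cells were stained with a tetramer, a multimer of a class I molecule loaded with a viral peptide. The peptide was NP396 of the nucleoprotein of lymphocytic choriomeningitis virus (LCMV). The stained cells were split by surface CD45RB, a splice form of the phosphatase CD45. There were 4 libraries of CD45RBhi NP396+ cells and 4 of CD45RBlo NP396+ cells, all collected 42 to 45 days (week 6) after intraperitoneal infection with 200000 pfu of LCMV Armstrong, a strain that is cleared. The control group was 3 libraries of CD44lo naive CD8 T cells, whose labels carry the same infection text and a time entry of 6 to 8 weeks, so neither the infection status nor the age of the donors of the naive cells can be read from them. Separate animals are not stated for the replicates, and the p-values speak only of the spread among these libraries, part of which may be technical.

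As background, Klrd1 (CD94) has no long signalling tail and pairs with a partner of the Klrc group. With Klrc1 (NKG2A) it forms an inhibitory receptor that recruits phosphatases, and with Klrc2 (NKG2C) an activating receptor that needs the adaptor Tyrobp (DAP12). Both pairs bind Qa-1, the nonclassical class I molecule encoded by H2-T23. Klrk1 (NKG2D) is an activating receptor for stress-induced ligands and signals through Hcst (DAP10), Klrg1 is an inhibitory receptor for cadherins, and Klrb1c is the NK1.1 antigen of this mouse strain. The Klra genes encode the Ly49 receptors, most of which bind class I molecules. Klra3 (Ly49C), Klra7 (Ly49G) and Klra9 (Ly49I) are inhibitory, and Klre1 is a lectin-like receptor that pairs with other receptors of the complex.

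All 10 genes lie on chromosome 6 (GRCm38, GENCODE M21) and are annotated as protein-coding. Klrg1 (ENSMUSG00000030114, 122270596-122282882, minus strand) lies apart from the rest. The other 9 lie in the NK gene complex, in the order Klrb1c (ENSMUSG00000030325, 128778485-128789215, minus strand), Klre1 (ENSMUSG00000050241, 129577905-129585827, plus), Klrd1 (ENSMUSG00000030165, 129591782-129598775, plus), Klrk1 (ENSMUSG00000030149, 129610323-129623864, minus), Klrc2 (ENSMUSG00000052736, 129647496-129660689, minus), Klrc1 (ENSMUSG00000030167, 129666015-129678973, minus), Klra9 (ENSMUSG00000033024, 130178675-130193112, minus), Klra7 (ENSMUSG00000067599, 130218605-130233322, minus) and Klra3 (ENSMUSG00000067591, 130323289-130337574, minus). The genes of 1 family are near-copies, which bears on how reads are counted. Of all 50-base windows of the Klrc1 transcripts, 38.6% also occurred in transcripts of another gene, mostly Klrc2. That share was 31.5% for Klra9, 20.7% for Klra3, 17.0% for Klrb1c (mostly the overlapping gene model Gm44511), 16.3% for Klrc2 and 12.3% for Klra7. It was 0.28% for Klre1 and 0 for Klrg1, Klrd1 and Klrk1, so the counts of these 4 depend least on how reads of near-copies were assigned.

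Promoters were read for 8 of the 10 genes from a RefSeq table on GRCm38.p6, as the 250 bases before an annotated start. Klrg1 and Klrd1 were not matched. RefSeq and GENCODE starts can differ: the windows of Klrb1c and Klre1 and 1 of Klra7 lie inside the GENCODE gene spans given above, and those of Klrc2 overlap its span in part. The Klra3 window begins at 130337627, while its GENCODE span ends at 130337574. The bases searched after its RefSeq start matched no GENCODE transcript of Klra3, so this start is not shared by both annotations. Searched on both strands, the letters TGTGGT (reverse ACCACA), the core recognised by RUNX factors, occurred in a promoter of 5 of the 8 genes (Klrc1, Klrc2, Klrk1, Klrb1c and Klre1), and in 4614 of 32851 promoters of the table (14%). The T-box letters AGGTGT (reverse ACACCT) occurred in 0 of 8 and in 11.8% of all promoters, and the longer AGGTGTGA, which contains them, in 0 of 8 and 1.12%. The STAT letters TTCNNNGAA occurred in 1 of 8 (Klra7; 7.02% of all) and the ETS letters AGGAAG (reverse CTTCCT) in 3 of 8 (Klrb1c, Klre1 and Klra7; 29.5% of all). A gene was counted if any of its windows matched, and Klrc2, Klre1 and Klra7 had more than 1 window. The share of all promoters is per window, so the units differ. These are matches of letters in a window and not measured binding sites. Below are promoters of Klrc1 and Klrk1, the members with the most reads in memory cells. Each is given 5′ to 3′ on the strand of its gene, and capitals mark the RUNX letters.
Klrc1 chr6:129678974-129679223, minus strand: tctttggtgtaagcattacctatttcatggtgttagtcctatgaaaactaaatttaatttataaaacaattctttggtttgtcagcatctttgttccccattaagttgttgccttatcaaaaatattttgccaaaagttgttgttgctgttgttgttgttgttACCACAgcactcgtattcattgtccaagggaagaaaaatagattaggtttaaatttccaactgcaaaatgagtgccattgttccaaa
Klrk1 chr6:129623865-129624114, minus strand: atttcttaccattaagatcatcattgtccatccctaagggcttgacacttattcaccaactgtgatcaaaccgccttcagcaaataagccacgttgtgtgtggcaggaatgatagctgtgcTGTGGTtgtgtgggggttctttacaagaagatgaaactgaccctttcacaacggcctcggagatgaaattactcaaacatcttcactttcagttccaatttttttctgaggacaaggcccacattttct

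The promoters of Klra3 and Klra9 are shown because both genes were lower in CD45RBhi in the paired comparison below and because their sequences are near-copies of each other. Their 250-base windows aligned over 231 base pairs without gaps counted, of which 224 (97.0%) were identical. Capitals mark the 7 mismatches and, in Klra3, 3 bases inside the alignment with no partner in Klra9. The first 16 bases of Klra3 and the last 19 of Klra9 lie outside the alignment. They are in lower case but are not shared.
Klra3 chr6:130337627-130337876, minus strand: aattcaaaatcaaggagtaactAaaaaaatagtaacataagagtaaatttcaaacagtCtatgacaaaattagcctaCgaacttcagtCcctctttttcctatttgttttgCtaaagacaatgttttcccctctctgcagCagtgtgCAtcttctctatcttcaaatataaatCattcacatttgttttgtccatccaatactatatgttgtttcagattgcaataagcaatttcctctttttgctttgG
Klra9 chr6:130193113-130193362, minus strand: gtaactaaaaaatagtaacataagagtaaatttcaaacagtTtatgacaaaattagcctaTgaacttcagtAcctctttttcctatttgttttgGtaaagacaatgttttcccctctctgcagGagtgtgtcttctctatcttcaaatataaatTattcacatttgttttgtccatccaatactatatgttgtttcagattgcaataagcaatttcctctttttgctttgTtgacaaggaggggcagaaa

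Libraries held 18024793 to 23151297 counts. A count of 0 still allows up to 3 counts, which is 0.130 to 0.166 CPM, the counts scaled to a common library total. Such limits and the intervals of count ratios cover counting error only. The T cell markers Cd3e, Cd3d, Cd3g, Cd8a, Cd8b1 and Trac summed to between 6781 and 8380 CPM in every library, so that none was low in the RNA of the labelled cell type. The 9 NK cell markers in the table summed to 5.29 to 7.13 CPM (naive), 20.1 to 28.7 CPM (CD45RBhi) and 18.9 to 27.3 CPM (CD45RBlo). This list shares Klra4, Klra8, Klrb1f and Klri2 with the receptor family. Ncr1, which defines NK cells, had 0 to 2 counts in every library of each group, and Khdc1a had 0. Itga2, a listed marker outside the receptor family, was higher with memory. Naive libraries averaged 1.13 CPM of it and did not exceed 1.58, while CD45RBhi averaged 2.86 (lowest library 2.17) and CD45RBlo 3.21 (lowest 2.18). By the test used below, 5 of the 7 NK markers tested were higher than naive for each memory group. Of all genes tested, 22.3% were higher in CD45RBhi and 22.4% in CD45RBlo. Tyrobp and Fcer1g did not pass. Klra4, Klra8 and Klri2 reached the minimum level for testing in 0 naive libraries. They were tested through the memory libraries alone and had to come out higher. Naive libraries held more RNA of several other blood cells: erythroid markers summed to 234 to 520 CPM, against 0.304 to 1.57 in CD45RBhi and 0.242 to 25.0 in CD45RBlo. For B cell markers the sums were 48.1 to 54.2, 4.88 to 14.7 and 3.68 to 5.28 CPM, for myeloid markers 25.0 to 44.9, 2.82 to 10.2 and 7.41 to 15.8, and for NKT and MAIT cell markers 6.06 to 6.48, 0.451 to 5.21 and 0.736 to 3.64. The sum of 4 CD4 T cell markers went the other way, at 3.34 to 4.53 CPM in naive libraries, 7.55 to 12.8 CPM in CD45RBhi ones and 9.69 to 14.7 CPM in CD45RBlo ones. Most of this was Zbtb7b (0.102, 7.86 and 8.59 CPM on average), while Cd4 itself did not exceed 0.443 CPM in any library. Within the myeloid list Itgam, an integrin chain, also averaged more in memory (0.727 CPM in naive against 5.33 and 6.58 CPM). The part of these cells in the results was not tested. These are bulk libraries, so a smaller share of cells that carry a receptor and less of its RNA per cell cannot be told apart.

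The first question was how the receptors of virus-specific memory cells differ from those of naive cells. All 10 genes were higher in both memory groups than in naive libraries, and no naive library overlapped a memory library for any of them. Together they took 0.0105% to 0.0117% of all counts in naive libraries, 0.167% to 0.208% in CD45RBhi and 0.198% to 0.211% in CD45RBlo. Klrd1 was the exception in size: it was already at about 97.5 CPM in naive cells and was 2.25-fold higher in CD45RBhi, while the genes of its partners and the remaining receptors started at or below 3.49 CPM. With edgeR's quasi-likelihood test and Benjamini-Hochberg adjustment over all genes, 10 of 10 passed an adjusted p of 0.05 in each memory group. Among all 13735 genes tested, 41.5% passed for CD45RBhi against naive (22.3% higher) and 42.2% for CD45RBlo (22.4% higher). Not overlapping and higher were 24.1% and 25.2%. The median log2 fold change of the 10 was 7.96 and 8.34, against -0.01 and -0.01 over all genes. These counts lend no support on their own. Only Klrc1, Klrd1 and Klrk1 reached the minimum level of the filter (0.484 CPM) in all naive libraries, Klrg1 did so in 2 and Klrb1c in 1. The other 5 passed the filter through the memory libraries alone and so had to differ.

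The CD94 pair and its partners came first. Klrd1 was at 105.3, 96.5 and 90.6 CPM in the 3 naive libraries, at 243.8, 205.2, 223.9 and 206 in CD45RBhi replicates 1 to 4, and at 199.9, 162.5, 210.7 and 207.9 in CD45RBlo. Every memory library was above every naive one, and the 2 memory groups overlapped. Its log2 fold change was 1.17 ± 0.107 (SE; adjusted p = 2.08e-06) in CD45RBhi and 1.00 ± 0.107 (8.03e-06) in CD45RBlo. Klrc1, the inhibitory partner, was at 1.46, 1.19 and 0.689 CPM in naive, at 697.6, 523.4, 580.7 and 527.1 in CD45RBhi, and at 684.1, 532, 653 and 584.7 in CD45RBlo. Naive cells therefore held RNA of the shared chain with little of this partner, and memory cells held both. The log2 fold change of Klrc1 was 9.01 ± 0.227 (1.47e-11) and 9.09 ± 0.227 (1.18e-11). Klrc2, the activating partner, had 0, 1 and 4 counts in the naive libraries, 131, 142, 926 and 67 in CD45RBhi and 119, 103, 167 and 121 in CD45RBlo. Among the memory libraries 1 stood out, CD45RBhi replicate 3, with 46.06 CPM where the other 7 lay between 3.505 and 8.917. Summed over each group and scaled by depth, Klrc2 was 189-fold (95% counting interval 80.9 to 584) above naive in CD45RBhi and 79.7-fold (33.9 to 246) in CD45RBlo. Without CD45RBhi replicate 3, which held 926 of the 1266 counts, the first value was 67.3-fold (28.6 to 209), so the order of the memory groups rests on that library. In the fit its log2 fold change was 7.47 ± 1.23 (0.000344) and 6.22 ± 1.25 (0.00141), and with 1 library left out its lowest values were 5.95 and 5.63.

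Klrk1, the activating NKG2D receptor, was at 2.33, 4.25 and 3.89 CPM in naive, at 633, 789.4, 688.6 and 624 in CD45RBhi, and at 560.4, 707.2, 718.2 and 707.4 in CD45RBlo libraries. CD45RBlo replicate 1 lay below the rest of its group, and the memory groups overlapped. Its log2 fold change was 7.62 ± 0.212 (3.41e-11) and 7.60 ± 0.212 (3.4e-11). Klrg1, the cadherin receptor used to mark terminally differentiated effector cells, was at 0.594, 0.311 and 0.542 CPM in naive, at 247.3, 191.5, 220.5 and 210.4 in CD45RBhi, and at 379.7, 275.4, 275.5 and 321.1 in CD45RBlo. Every CD45RBlo library was above every CD45RBhi library, and Klrg1 was the only 1 of the 10 for which the memory groups did not overlap (2.31% of all genes were lower in this way). Against naive its log2 fold change was 8.78 ± 0.222 (1.47e-11) in CD45RBhi and 9.31 ± 0.224 (9.4e-12) in CD45RBlo. Klrb1c (NK1.1) was at 0.274, 0.467 and 0.197 CPM in naive, at 244.7, 169, 181.9 and 117.6 in CD45RBhi, and at 229.5, 199.2, 135.8 and 128.9 in CD45RBlo. Here the libraries numbered 1 were highest and those numbered 4 lowest in both memory groups. The log2 fold change was 9.14 ± 0.427 (4.09e-09) and 9.10 ± 0.427 (3.95e-09).

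Klre1 was at 0.137, 0 and 0.148 CPM in naive, at 62.34, 30.16, 35.66 and 30.03 in CD45RBhi, and at 75.23, 49.95, 55.96 and 62.87 in CD45RBlo. The memory groups overlapped through CD45RBhi replicate 1. Scaled group counts were 402.5-fold (185 to 1098) and 621-fold (285 to 1693) above the 6 naive counts, and adjusted p was 2.7e-08 and 1.18e-08. The 3 Ly49 genes covered a wide range of levels. Klra9 was at 0.0914, 0.156 and 0.0492 CPM in naive, at 46.49, 32.98, 32.93 and 18.94 in CD45RBhi, and at 68.54, 66.67, 51.53 and 44.31 in CD45RBlo. It was the most abundant of the 3, and only CD45RBhi replicate 1 reached into the CD45RBlo range. Its log2 fold change against naive was 8.31 ± 0.471 (2.46e-08) and 9.12 ± 0.468 (8.82e-09). Klra3 was at 0.228, 0 and 0.0492 CPM in naive, at 3.26, 1.909, 5.272 and 2.773 in CD45RBhi, and at 4.815, 7.655, 8.597 and 10.13 in CD45RBlo. Only CD45RBhi replicate 3 was above the lowest CD45RBlo library. The log2 fold change of Klra3 was 5.00 ± 0.638 (4.34e-05) and 6.25 ± 0.630 (4.9e-06). Klra7 had 0, 0 and 2 counts in naive libraries, 6, 6, 14 and 41 in CD45RBhi and 13, 11, 16 and 17 in CD45RBlo. At this depth it was the weakest receptor, and its scaled group counts were 25.1-fold (6.67 to 211) and 22.3-fold (5.89 to 188) above naive (adjusted p = 0.00488 and 0.00676). Without CD45RBhi replicate 4, which held 41 of the 67 counts, the first value was 12.7-fold (3.17 to 110). With 1 library left out the fitted log2 fold change ran from 3.45 to 7.10 and from 3.70 to 6.89.

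**Figure D1:**
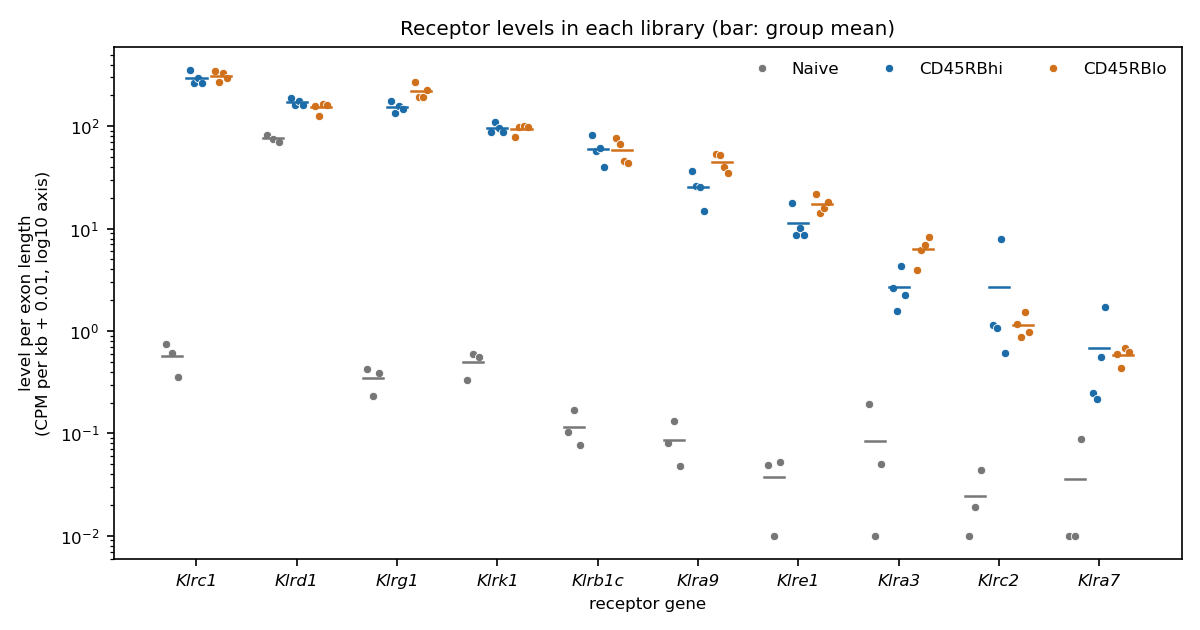
Levels of the 10 receptor genes in each library, as CPM per kilobase of exon plus 0.01 on a log10 axis. Points are libraries and bars group means (3 naive in grey, 4 CD45RBhi in blue, 4 CD45RBlo in orange). In naive libraries Klrd1 alone is near memory levels, at 76.1 on average, while the other 9 average 0.562 or less.

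Genes can be ranked against each other only per length, and the plot of levels by library uses CPM per kilobase of all annotated exons of a gene (1238 bases for Klra3 to 7183 for Klrk1). On this scale naive cells held Klrd1 at 76.1 ± 5.76 (SD, n = 3), and the next gene, Klrc1, at 0.562 ± 0.198. In CD45RBhi libraries (n = 4) the order was Klrc1 (293 ± 41.0), Klrd1 (171.5 ± 14.2), Klrg1 (154 ± 16.5), Klrk1 (95.2 ± 10.6), Klrb1c (60.2 ± 17.7), Klra9 (25.7 ± 8.80), Klre1 (11.3 ± 4.41), Klrc2 (2.68 ± 3.51), Klra3 (2.67 ± 1.15) and Klra7 (0.672 ± 0.700). Neighbours whose libraries overlapped were Klrd1 and Klrg1, Klra9 and Klre1, and the last 3 genes, whose order is not resolved. In CD45RBlo libraries (n = 4) the order was Klrc1 (309 ± 34.5), Klrg1 (221 ± 35.0), Klrd1 (152 ± 17.4), Klrk1 (93.7 ± 10.5), Klrb1c (58.5 ± 16.6), Klra9 (45.2 ± 9.20), Klre1 (17.5 ± 3.11), Klra3 (6.30 ± 1.81), Klrc2 (1.13 ± 0.299) and Klra7 (0.574 ± 0.109). Overlapping neighbours there were Klrc1 with Klrg1 and Klrb1c with Klra9. Klrg1 stood above Klrd1 in CD45RBlo and overlapped it in CD45RBhi.

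The second question was whether the 2 memory groups differ. Without use of the replicate numbers, 0 of the 10 receptors passed the test, where 17 of 13735 genes did (0.124%; 0.0801% higher and 0.0437% lower in CD45RBhi). At an unadjusted p of 0.05, 1236 genes passed this test. DESeq2 called 2 of the 10, Klrg1 and Klra3, both lower. The number of all genes that DESeq2 called is given below with the other alternatives. The replicate numbers appeared to pair the memory libraries. Across genes, departures from the group mean correlated at 0.191 to 0.452 within a number and at 0.0284 or less between numbers. Departures cancel out within a group, so the values between numbers are not independent of those within. This pairing was read from the data and is not stated in the labels. With the replicate number as a block, 4 of 10 receptors were lower in CD45RBhi than in CD45RBlo and 0 were higher, among 12637 genes of which 5.59% passed (3.08% lower and 2.52% higher). The 4 were Klre1 and the inhibitory receptors Klrg1, Klra3 and Klra9. Each was lower in CD45RBhi in 4 of 4 pairs, as were 14.4% of all genes. The median log2 difference of the 10 was -0.03 without and -0.09 with the block, against 0.00 and -0.01 over all genes.

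Klrg1 averaged 217 ± 23.3 CPM (SD) in CD45RBhi and 313 ± 49.4 in CD45RBlo libraries, n = 4 each. Its log2 ratio of CD45RBhi to CD45RBlo was -0.62, -0.52, -0.32 and -0.61 in pairs 1 to 4, a narrow range. The paired difference was -0.52 ± 0.0606 (adjusted p = 0.000703), and without the block -0.53 ± 0.120 (adjusted p = 0.176). Klra9 averaged 32.8 ± 11.3 and 57.8 ± 11.8 CPM, with -0.56, -1.01, -0.65 and -1.22 in the pairs. Pairs 2 and 4 showed the larger differences in this Ly49 gene. Its paired difference was -0.85 ± 0.105 (adjusted p = 0.00096; 0.27 without the block). Klra3 averaged 3.30 ± 1.43 and 7.80 ± 2.24 CPM, and the pairs gave -0.56, -1.98, -0.70 and -1.85, again with pairs 2 and 4 apart from 1 and 3. The paired difference was -1.27 ± 0.252 (adjusted p = 0.0146; 0.334 without the block). It was the only 1 of the 4 calls lost when a pair was left out, at -1.04 or beyond throughout but adjusted p = 0.07 without pair 4. Klre1 averaged 39.6 ± 15.4 and 61.0 ± 10.9 CPM, and the pairs gave -0.27, -0.73, -0.65 and -1.07. The paired difference was -0.67 ± 0.106 (adjusted p = 0.0043; 0.445 without the block).

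Because Klra3 and Klra9 share sequence with each other and with further Ly49 genes, the counts of all 14 Klra rows were also summed to 1 row. The summed row was lower in CD45RBhi by the pairs (-0.88 ± 0.110, adjusted p = 0.00104). Klra9 far outweighed Klra3 in this sum, with 2711 against 268 counts in CD45RBhi and 4513 against 624 in CD45RBlo. The summed row therefore says nothing of Klra3 alone. Of the Ly49 pseudogenes 2 were tested, both at 0 in all naive libraries and both named here after their values were seen. In the memory groups, CD45RBhi first, Klra14-ps averaged 4.37 ± 1.59 and 9.46 ± 2.16 CPM (SD, n = 4 each; paired difference -1.15, adjusted p = 0.00284), and Klra13-ps 1.23 ± 0.852 and 1.24 ± 0.426 CPM (-0.14, adjusted p = 0.856). Klra7, the other Ly49 member, did not follow: its pairs gave -1.16, -0.91, -0.28 and 1.40, and CD45RBhi replicate 4, with 41 counts, was the highest library. Its paired difference of -0.10 had a 95% interval from -1.18 to 0.97 at these low counts, which was too wide to tell a difference of the size seen in Klra9.

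The receptors of the CD94 pair, NKG2D and NK1.1 made up the rest, and none of these passed. Klrc1 averaged 582 ± 81.3 and 613.5 ± 68.4 CPM, with a paired difference of -0.08 (95% interval -0.19 to 0.04; adjusted p = 0.428). Klrk1 averaged 684 ± 76.0 and 673 ± 75.5 CPM, with 0.03 (-0.11 to 0.16; adjusted p = 0.857), and Klrb1c 178 ± 52.3 and 173 ± 49.0 CPM, with 0.04 (-0.15 to 0.23; adjusted p = 0.849). For these 3 genes the interval did not reach the difference measured for Klrg1. Klrd1 averaged 219.7 ± 18.2 and 195 ± 22.3 CPM, and its paired difference was 0.18 (0.03 to 0.32; adjusted p = 0.145). Klrc2 averaged 15.6 ± 20.4 and 6.56 ± 1.74 CPM, with pairs at -0.04, 0.30, 2.36 and -0.66, and its wide interval (-0.22 to 1.39) came with CD45RBhi replicate 3. That library also set the direction, as the paired difference was 0.58 with pair 3 and -0.12 without it. Whether the 4 lower receptors differ from these 6 was not tested.

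**Figure D2:**
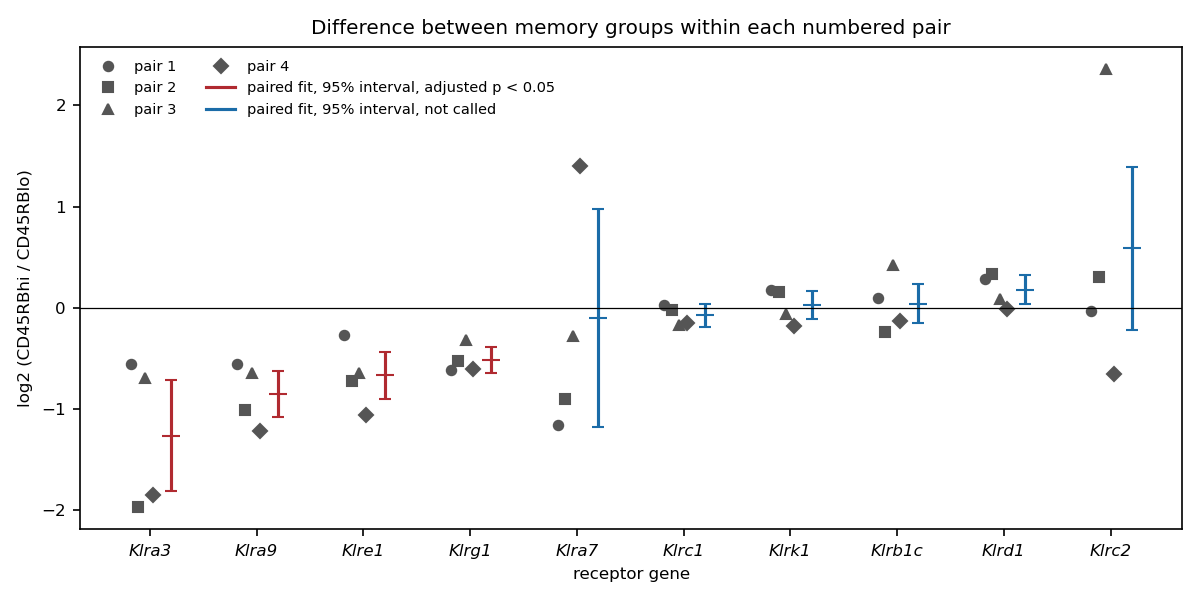
Difference between the memory groups for each receptor, as log2 of CD45RBhi over CD45RBlo. Grey symbols are the 4 numbered pairs and coloured bars the paired fit with its 95% interval (red where adjusted p is under 0.05). All 4 pairs lie below 0 for Klra3, Klra9, Klre1 and Klrg1, while Klra7 and Klrc2 each have 1 pair far from the others, at 1.40 and 2.36.

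The inhibitory and activating partners of Klrd1 were set against each other in each library. The ratio of Klrc1 to Klrc2 counts was 105.8, 84.6, 12.6 and 149 in CD45RBhi and 101, 106, 73.0 and 104.5 in CD45RBlo replicates 1 to 4. The Klrc1 transcript thus prevailed in all 8 libraries, least in CD45RBhi replicate 3. On the log2 scale the mean ratio was 6.00 ± 1.60 and 6.57 ± 0.256 (SD, n = 4 each), a difference of -0.57 (two-sided exact permutation p = 0.8, where the smallest possible is 0.0286). The sign rested on that 1 library, since without it the difference was 0.21. Reads of the stretch shared by Klrc1 and Klrc2 could have been assigned to either gene, so the ratio depends on the counting.

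**Figure D3:**
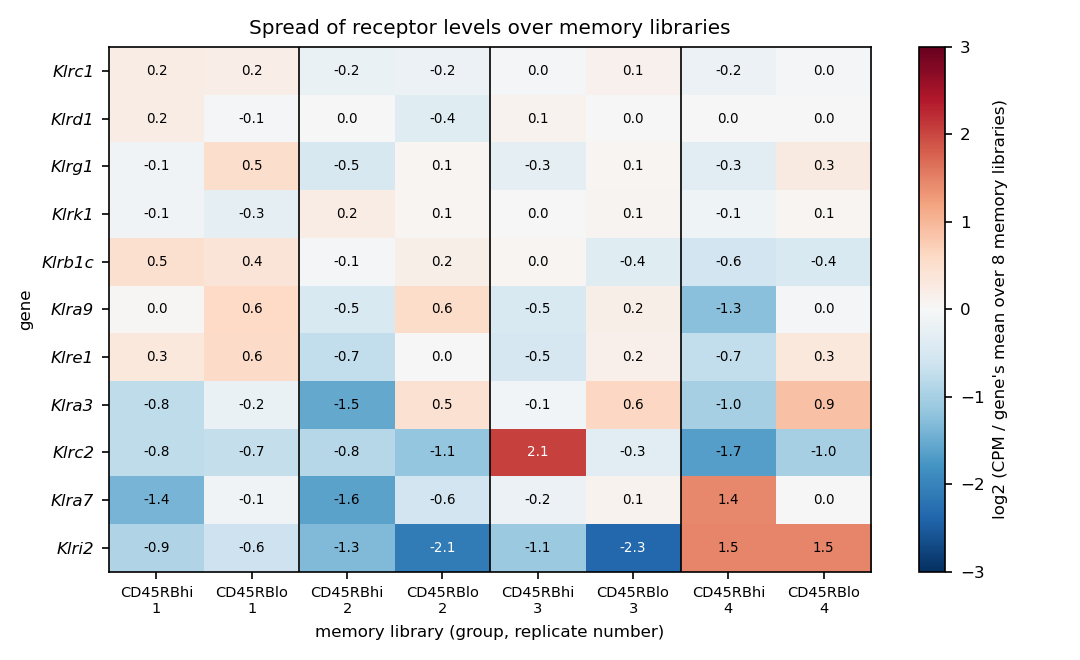
Level of each receptor in the 8 memory libraries, ordered by replicate number, as log2 of CPM over the mean of the gene over these libraries (red above, blue below). Black lines part the 4 numbered pairs. Klri2 is high in both libraries numbered 4, and Klrc2 in CD45RBhi replicate 3 alone, at 2.1.

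The map of levels over the memory libraries also shows differences between the numbered pairs that both groups share. A test of the replicate number, with the group kept in the model, passed for 6 of the 10 receptors and for 3353 of 12637 genes (26.5%). Klrb1c had the smallest adjusted p of these (0.00104): the pairs averaged 237.1, 184.1, 158.8 and 123.2 CPM in order of number, 1.92-fold between the extremes. Klra9 averaged 57.5, 49.8, 42.2 and 31.6 CPM (adjusted p = 0.00325), and Klre1 68.8, 40.1, 45.8 and 46.5 (0.00487), so that pair 1 was the highest for all 3. For Klrc1 and Klrg1 the extremes differed by 1.31-fold (0.00732) and 1.34-fold (0.0139). Klrc2 also passed (0.00783), with 27.5 CPM in pair 3, a value that rests on CD45RBhi replicate 3. Klrk1 (0.0628), Klrd1 (0.143), Klra7 (0.163) and Klra3 (0.253) did not pass. Of the further receptors 1 of 6 passed. This was Klri2, a partner of Klre1, at 1.61, 0.857, 0.889 and 7.50 CPM in pairs 1 to 4, with 144 and 162 counts in the libraries numbered 4 and 10 to 31 in the other 6 memory libraries (adjusted p = 0.000215, rank 214 of all genes).

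Correlations of log2 CPM over the 8 memory libraries describe which receptors varied together. They mix the group difference, the pair and the depth, and carry no test. The highest among the members were Klrg1 with Klre1 (r = 0.906), Klre1 with Klra9 (0.82) and Klrc1 with Klre1 (0.788), and the lowest Klrb1c with Klra7 (-0.665) and Klrc1 with Klrk1 (-0.543). Klrc1 and Klrd1, whose products pair, were at 0.519. Among 9375 genes of at least 5 CPM, those nearest to each receptor were found by the same measure. A search of so many genes over 8 libraries returns high values by itself, and none was set against chance. Klrg1 was nearest to Phf13 (0.966), Rnf216 (0.955) and Stard10 (0.955), Klre1 to Plekha6 (0.98), the chemokine receptor gene Cx3cr1 (0.971) and Gid8 (0.968), and Klra9 to Palm (0.987), the sphingosine phosphate receptor gene S1pr5 (0.966) and Kcnj8 (0.955). For Klra3 they were Tnfaip3 (0.969), Ip6k1 (0.965) and Lrrfip2 (0.946). No receptor of the family was among the nearest genes of these 4. Klrc1 was nearest to Dynll2 (0.975), Fam168a (0.969) and Abhd17b (0.964), Klrd1 to B630005N14Rik (0.925), Rpa3 (0.921) and Sptssa (0.913), and Klrk1 to Thoc1 (0.98), Sirt4 (0.976) and Blzf1 (0.976). Klrb1c was nearest to Imp4 (0.977), Eif1ad (0.952) and Pef1 (0.949), Klrc2 to Ptprcap (0.95), Ifrd1 (0.88) and Gpkow (0.874), and Klra7, whose values rest on few counts, to Cpped1 (0.962), Gm17296 (0.951) and Slc35f6 (0.951).

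Further receptors of the same family were rarer. Of 18 listed, 16 were in the table and 6 had enough counts to be tested. Of these, 6 of 6 were higher than naive in each memory group, where 22.3% and 22.4% of all genes were higher. With only the CD45RBhi and naive libraries in the fit, 2 were called, as were 2 in each group with a replicate block. Receptors that such a fit left untested count here as not called. Klra4, Klra8, Klrb1b and Klrc3 reached the filter's minimum in only 2, 2, 1 and 1 CD45RBhi libraries. Only Klrb1f reached the filter's minimum in all naive libraries, so for the other 5 this had to be so. The call of Klri2 was lost without naive replicate 2 (adjusted p = 0.0521 and 0.0565). Klrb1f, a lectin-like receptor of the NKR-P1 group, was at 1.04 ± 0.455 CPM in naive (n = 3), 11.9 ± 2.37 in CD45RBhi and 10.4 ± 1.73 in CD45RBlo (n = 4 each). Its log2 fold change was 3.52 (adjusted p = 9.23e-07) and 3.32 (1.45e-06). Klra4, Klra8, Klrb1b and Klrc3 had 0 counts in every naive library. Set against 3 counts over the naive group, Klra4 was at least 16.7-fold and 17.7-fold higher in CD45RBhi and CD45RBlo, Klra8 at least 13.2-fold and 29.2-fold, Klrc3 at least 9.72-fold and 15.9-fold, and Klrb1b at least 6.48-fold and 19.8-fold. Between the memory groups 0 of 6 passed, also by the pairs, where 0.124% and 5.59% of all genes passed. Klrb1b, the inhibitory NKR-P1B, was nearest to the threshold, at 0.323 ± 0.229 and 0.951 ± 0.439 CPM (paired difference -1.59, adjusted p = 0.0883).

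Neighbouring genes of the NK gene complex, taken as the span of its Klr genes (chromosome 6, 128609227-131247362, 2.64 Mb), were counted beside the receptors. Of 24 protein-coding Klr genes there, 15 were tested and 15 were higher in both memory groups. Of these 15, 10 reached the filter's minimum in no naive library and had to come out higher, so the count does not set the Klr genes apart from the others. The shares of all genes called higher were 22.3% and 22.4%. Of 19 other protein-coding genes 6 were tested: 1 was higher, 2 were lower and 3 did not pass. The 1 higher was Gabarapl1, an autophagy gene on the side of Klre1 away from Klrd1 (2.29 in CD45RBhi and 2.48 in CD45RBlo, log2). The lower genes were the activation antigen Cd69 (-0.69 and -0.81) and Clec1b, a platelet and myeloid lectin (-4.31 and -3.18). Clec1b reached the filter's minimum in all naive libraries but was too low among the memory libraries for the paired fit. Its call thus leans on the filter and lends no support on its own. BC035044, Clec2i and Clec2d did not pass the test. Of 5 tested non-coding genes and pseudogenes outside the Klr family, 4 were higher in both memory groups. These included the antisense gene Gm15987 (5.71 and 6.00, from below the filter's minimum in every naive library), the pseudogene BC064078 (2.99 and 3.33) and the lincRNA 2310001H17Rik (1.17 and 1.34). Between the memory groups 0 of the 15 and 0 of the 6 protein-coding genes passed without the block.

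**Figure D4:**
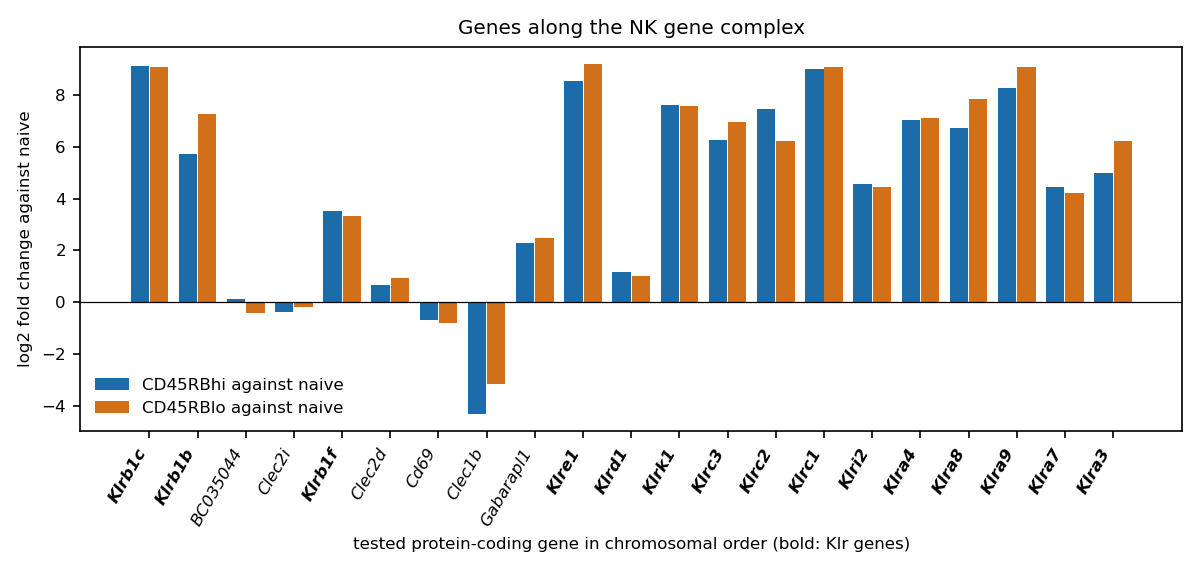
Log2 fold change against naive for every tested protein-coding gene of the NK gene complex, in chromosomal order, with Klr genes in bold. Blue bars are CD45RBhi and orange bars CD45RBlo against naive. The 15 Klr genes lie above 0, which the filter had fixed for 10 of them, and of the 6 others Gabarapl1 lies at 2.29 and 2.48. Non-coding genes and pseudogenes are not drawn.

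The adaptors that these receptors signal through were read from a list of 26 genes, all tested. Against naive, 10 were higher and 3 lower in CD45RBhi, and 11 higher and 2 lower in CD45RBlo, 13 of 26 in each where 41.5% and 42.2% of all genes were called. Hcst, the adaptor of Klrk1, was at 118 ± 10.4 CPM in naive (n = 3), 234 ± 45.8 in CD45RBhi and 203 ± 36.8 in CD45RBlo (n = 4 each), a log2 fold change of 0.99 (adjusted p = 0.000517) and 0.78 (0.00245). Tyrobp, the adaptor of Klrc2, averaged 2.04, 2.30 and 1.58 CPM and Fcer1g, an adaptor of other activating receptors, 2.00, 3.21 and 1.73 CPM, and neither passed. Thus of the 2 adaptors of activating receptors named above, the RNA of Hcst was abundant and that of Tyrobp was low in all groups. Ptpn11, the phosphatase SHP-2 that inhibitory receptors recruit, rose from 37.4 ± 2.85 CPM to 92.5 ± 5.50 in CD45RBhi and 117 ± 11.7 in CD45RBlo (1.31, adjusted p = 5.26e-07, and 1.64, 6.16e-08). Ptpn6, the related SHP-1, fell from 577 ± 21.1 to 469 ± 42.0 and 475 ± 36.7 CPM (-0.30, adjusted p = 0.014, and -0.28, 0.0195), calls that were lost without naive replicate 1 (adjusted p = 0.0574 and 0.0741) and, in CD45RBlo, without naive replicate 3 (0.0608) or CD45RBlo replicate 3 (0.0514). The inositol phosphatase Inpp5d (SHIP-1), also used by inhibitory receptors, rose by 0.69 (0.00401) and 0.75 (0.0021).

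Among the kinases and scaffolds, Fyn rose from 489 ± 13.4 to 1234 ± 92.4 and 1291 ± 57.5 CPM (1.34, adjusted p = 2.22e-08, and 1.40, 1.28e-08). The adaptor Sh2d2a rose from 242 ± 6.18 to 483 ± 31.7 and 474 ± 26.9 CPM (1.00, adjusted p = 4e-07, and 0.97, 4.86e-07), and Lcp2 (SLP-76) by 0.53 (0.000205) and 0.47 (0.000491). Between the memory groups 0 of 26 passed without the block and 2 were lower in CD45RBhi with it, where 3.08% of all genes were lower. These were Plcg1, a phospholipase (188 ± 46.8 and 238 ± 45.6 CPM; paired difference -0.36, adjusted p = 0.0056), and Ptpn11 (-0.33, adjusted p = 0.0244). The Ptpn11 call was lost in 3 of the 4 fits without a pair. Hcst was at a paired difference of 0.20 (adjusted p = 0.0636).

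Ligands of the receptors were also measured, since T cells carry several of them. Of 16 listed, 9 were tested, and 4 were higher and 0 lower than naive in each memory group, where 22.3% and 22.4% of all genes were higher. The 4 were the classical class I genes H2-K1 (4983 ± 321 CPM, 7624 ± 397 and 7406 ± 242, in the order naive, CD45RBhi, CD45RBlo, with log2 fold changes of 0.61 and 0.57) and H2-D1 (0.69 and 0.70), which Ly49 receptors bind, the class I light chain B2m (0.60 and 0.40), and the cadherin Cdh1, a ligand of Klrg1 (4.66 ± 0.963 CPM, 9.86 ± 3.33 and 9.90 ± 2.16; 1.08 and 1.09). B2m in CD45RBlo was no longer called when libraries were scaled by total count (0.26, adjusted p = 0.0938) and without naive replicate 1, 2 or 3 or CD45RBlo replicate 1 or 3 (adjusted p = 0.0553 to 0.0737). H2-T23, which encodes the Qa-1 ligand of the CD94 receptors, was at 610 ± 75.0, 599.5 ± 39.1 and 643 ± 61.7 CPM and did not pass in any comparison. Between the memory groups 0 of 9 passed without the block and 1 with it (2.52% of all genes were higher), B2m (0.20, adjusted p = 0.0489), which was lost without any of the 4 pairs.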

How the data were processed

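RNA of 11 libraries was measured: 3 naive, 4 CD45RBhi and 4 CD45RBlo. The authors deposited 1 table of raw read counts by Ensembl gene, not normalized. Per the submitters' processing notes, SAMtools, featureCounts and DESeq2 were used with mm10 (GRCm38). Aligner, annotation release, read length and strand setting: not given in the sources used here. Near-copies matter: the way reads of near-identical receptors were assigned can change the Klra, Klrb1 and Klrc counts.

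Groups came from sample titles. Low genes were removed (filterByExpr, minimum count 10), and 13735 genes with at least 99.9% of each library's counts remained. Scaling was by TMM. All 11 libraries were fitted in 1 model of group means and tested two-sided with edgeR 4.0.16 (quasi-likelihood; R 4.3.3) at an adjusted p of 0.05. CPM used TMM-scaled totals. Replicate pairing was checked by correlating deviations from group means. It was seen for the memory libraries, not for naive with memory (-0.105 to 0.0422), and the paired fit covered 8 libraries and 12637 genes. The coefficient of variation was 18.7% unpaired and 9.88% paired. No replicates were identical (chi-square per degree of freedom 10.2 to 93.3 over pairs). The scripts were tested on simulated data. Alternatives were DESeq2 1.42.0, library-size scaling, no filter, the 2 groups alone, left-out replicates, summed families and a replicate block. Figures were drawn with matplotlib 3.10.9.

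The receptors and gene lists were chosen with earlier results of these data known. All 10 receptors were named whatever their p. From each of 3 lists up to 5 tested genes per comparison could be named by smallest p, and for each receptor the 3 most correlated genes of at least 5 CPM. Hcst, Tyrobp, Fcer1g, Ptpn6, H2-T23 and the genes of the NK complex were named for their role or place, and Klra14-ps and Klra13-ps after their values were seen.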

Additional observations from a re-analysis of the deposited data

Results flagged for a closer look

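Each receptor tested was checked for a single library far from its group, in 32 combinations of a gene and a memory group. A library counted as far when its gap to the nearest other, divided by the range of the group, was above Dixon's critical value. Chance alone would give about 1 in 20, and 3 were found.

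Klrc2, the activating CD94 partner, was at 46.06 CPM in CD45RBhi replicate 3, where the other 3 libraries of the group lay between 3.505 and 6.57 CPM. Its pair, CD45RBlo replicate 3, was the highest of its group at 8.917 CPM. Klri2 was at 7.533 CPM in CD45RBhi replicate 4 against 1.085 to 1.454 CPM in the others, and at 7.461 CPM in CD45RBlo replicate 4. Klrk1 was low in CD45RBlo replicate 1, at 560.4 CPM against 707.2 to 718.2 CPM, and was at 633 CPM in CD45RBhi replicate 1.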

How the results depend on the processing

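The 10 receptors kept their direction and their call against naive in each alternative that tested them (123 values for CD45RBhi and 124 for CD45RBlo). Klra7 had too few counts to be tested with naive libraries in a replicate block, or with only the CD45RBhi and naive libraries. Scaling by library size moved the median of all genes against naive to -0.16 and -0.14 and the split of calls to 2301 higher and 3724 lower, and to 2356 and 3609, and all 10 receptors stayed called. Genes called for CD45RBhi against naive numbered 5694, 3736 with a replicate block and 4669 to 5843 when 1 replicate was left out. For CD45RBlo against naive they numbered 5794 and 4806 to 5567.

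Between the memory groups the results depended on the pairing. Genes called numbered 17, 144 with DESeq2, 4 with only the 2 groups, 707 with the replicate block, 6 to 15 with 1 replicate left out, and with the block 344, 667, 167 and 300 without pairs 1 to 4. Receptors called numbered 0, 2 with DESeq2 (Klrg1 and Klra3, adjusted p = 0.0114 and 0.0459), 4 with the block, and 3 to 4 with the block and 1 pair left out. For Klrg1, Klre1 and Klra9 adjusted p then ran up to 0.00863, 0.0435 and 0.00931, and for Klra3 to 0.07.

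Receptors that were not called could change sign. Summing families gave -0.84 for all Klra genes and -0.053 for all Klrc genes. These values were set by the far more abundant Klra9 and Klrc1 and say nothing of Klra3, Klra7 or Klrc2 alone. Klra7 (0.21) was -0.10 with the block, -0.79 to 0.52 with 1 replicate left out, and -0.81 to 0.22 with the block and 1 pair left out, where the values below 0 were -0.045 and -0.81. Klrc2 (1.25) was -0.27 to 1.58 with 1 replicate left out and -0.12 to 0.97 with the block. The ranges for Klrb1c (0.04) were -0.15 to 0.21 and -0.092 to 0.13, with -0.060 and -0.078 without CD45RBlo replicates 3 and 4. Those for Klrk1 (0.02) were -0.056 to 0.064 and -0.023 to 0.093, with -0.054 without CD45RBhi replicate 2. The difference in the Klrc1 to Klrc2 ratio was -0.98 to 0.21 with 1 replicate left out, and -0.57 with a replicate block (exact permutation p = 0.75, smallest possible 0.125). The cause was not tested. The replicate number test called 3353 genes and 6 receptors, and 4402 and 8 without a filter.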
